A study of Mus musculus with 21 samples.

Results

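In quadriceps muscle of mice, 10 genes of the circadian clock were followed, namely the transcriptional activators Arntl, Clock and Npas2, the clock-controlled D-box factors Dbp, Tef, Hlf and Nfil3, and the output genes Usp2, Bhlhe40 and Bhlhe41. They were chosen by symbol, with earlier results of these data known, and all 10 had a row among the 53738 gene symbols of the expression table. The values are TPM, transcript levels corrected for length and scaled to a fixed total, from bulk RNA-seq of 7 groups with 3 libraries each as deposited. Sedentary mice had neither trained nor run. Untrained and trained mice ran on a treadmill to exhaustion and were killed directly after that bout (0 h), 6 h later or 72 h later. The trained mice had run voluntarily in wheels for 12 weeks before it. None of the 7 groups held trained mice without the bout. A lasting difference of training and a different response to the bout therefore cannot be told apart in trained muscle. All animals were wild-type male C57/Bl6 adults, so no group carried a transgene or a deletion. The time of day of sacrifice is not given in the sources used here. Neither time after exercise nor training state can therefore be told apart from time of day in any comparison of these rhythmic genes. In bulk tissue, fewer cells of a type and less RNA per cell cannot be told apart either.

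The clock is a feedback loop of transcription. BMAL1, encoded by Arntl, pairs with CLOCK or with its relative NPAS2 and binds E-boxes, which activates the Per and Cry genes, whose products then inhibit the pair, and the Nr1d1 and Nr1d2 genes, whose products repress Arntl through RORE sites. The same pair drives Dbp, Tef and Hlf, the PAR bZIP activators, and these compete with the repressor NFIL3 (also known as E4BP4) for D-boxes, which passes the rhythm on to metabolic genes. Because Arntl and Dbp are controlled by opposite limbs of the loop, their transcripts peak at nearly opposite phases in many mouse tissues, muscle included.

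Members of the loop differ in the elements that lie at their start sites, and the stretches that hold one are shown here because factors of the loop are known to bind such letters. A match describes the sequence and does not show a bound site. Promoter windows of 300 bases, from 250 bases before to 50 after a start site, were taken from RefSeq (table build GRCm38.p6) for 9 of the 10 genes, 13 windows in all, and were placed in GRCm39 by an exact match. They were searched on both strands for the E-box CACGTG, for the D-box TTATGTAA or TTACGTAA, for the RORE and for the cyclic AMP response element (CRE) TGACGTCA. Matches are in capitals, each sequence runs 5′ to 3′ on the strand of the gene, and no window held more than 1 match.
Arntl, RORE, chr7:112806734-112806763, plus strand: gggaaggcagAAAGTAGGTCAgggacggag
Tef, E-box of the first window, chr15:81686735-81686764, plus strand: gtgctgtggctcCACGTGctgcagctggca
Tef, E-box of the second window, chr15:81695450-81695509, plus strand: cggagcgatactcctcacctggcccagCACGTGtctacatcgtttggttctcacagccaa
Bhlhe41, E-box, chr6:145811282-145811311, minus strand: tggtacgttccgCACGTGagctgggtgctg
Hlf, CRE, chr11:90281734-90281763, minus strand: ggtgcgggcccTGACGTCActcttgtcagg
The RORE of Arntl began 27 bases after the start site. The E-boxes of Tef began 127 and 138 bases before their start sites, that of Bhlhe41 153 bases before, and the CRE of Hlf 9 bases before. The second Tef stretch lay outside annotated exons of the gene, and the others lay in an exon or UTR of some annotated transcript. Of all 32851 promoter windows in the table, 7.15% held the E-box, 1.06% a D-box, 0.384% the RORE and 1.79% the CRE. None of the 4 motifs was found in the windows of Clock, Npas2, Nfil3, Dbp and Usp2.

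A single library appears under both 0 h groups, as replicate 1 of the untrained and of the trained mice. Its values were the same in both columns for all 53738 symbols, 25037 of them above 0, whereas any other pair of columns shared at most 10 values above 0. The group of that library is therefore not known. It was left out of both 0 h groups, which leaves n = 2 in each and 19 libraries in the tests, and its values are given separately. Libraries were alike in the number of genes at 1 TPM or more (11048 to 11890), and genes of the mitochondrial genome took 37.7 to 48.0% of the TPM. The summed level of 5 skeletal muscle fibre markers (Acta1, Ckm, Mb, Mylpf and Tnnt3) lay between 71392 and 95764 TPM, the lowest sum being that of the shared library. TPM carry no read counts, so the depth is unknown. A gene is called changed when limma gave an adjusted p (Benjamini-Hochberg, over 11822 genes) below 0.05 and a change of at least 1.5 times in either direction, on the log2(TPM + 0.5) scale that understates changes of low genes.

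Levels per transcript length differed widely between the 10 genes. Tef was the most abundant with a mean of 81.9 TPM over the 20 distinct libraries, followed by Usp2 with 42.6, Bhlhe40 with 24.1 and Dbp with 23.0 TPM. Bhlhe41 (9.99 TPM), Nfil3 (9.76 TPM), Arntl (6.04 TPM), Clock (2.52 TPM) and Hlf (1.91 TPM) were lower, and Npas2 averaged 0.181 TPM, under the minimum mean of 1 TPM for a test. Tef was thus the main PAR bZIP transcript, at a level well above those of Dbp and Hlf in every library. The spread between libraries did not follow the level. The highest library was 5.91 times the lowest for Arntl, 5.22 times for Dbp and 9.90 times for Nfil3, but 2.01 times for Tef, 1.99 times for Bhlhe41, 2.39 times for Clock, 2.83 times for Hlf, 3.19 times for Bhlhe40 and 3.82 times for Usp2. For Npas2, with values near 0, it was 27.0 times. The plot of the values by library shows all 7 groups for each gene.

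**Figure D1:**
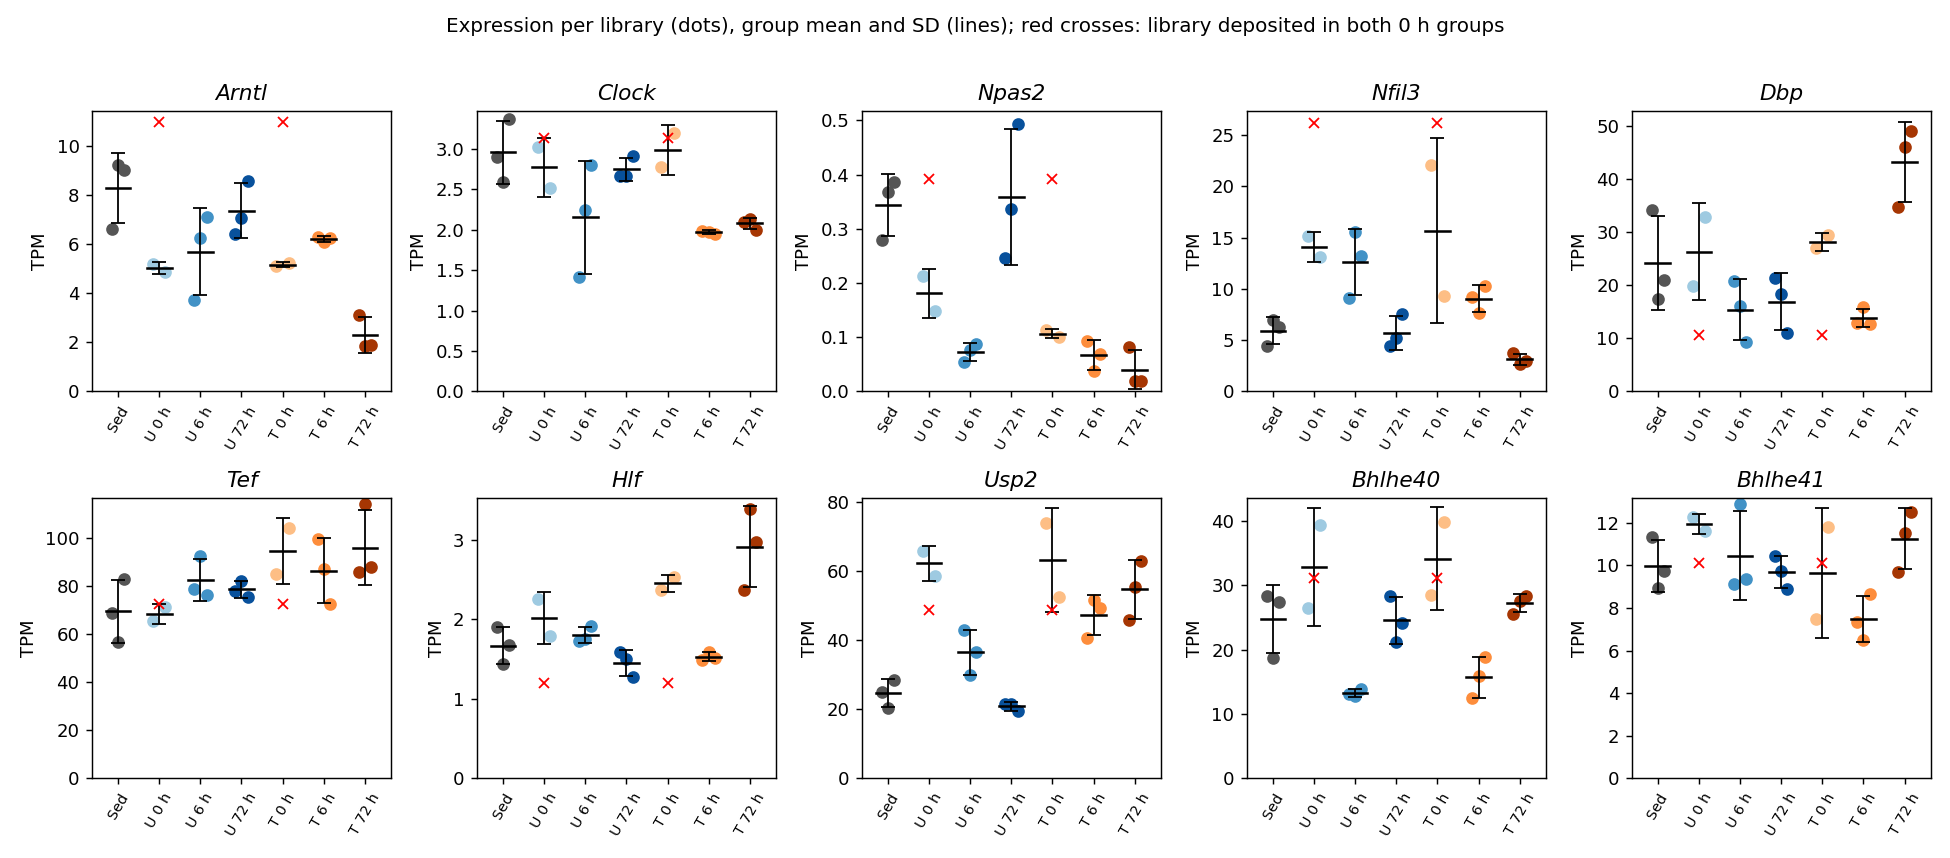
TPM (vertical axis, from 0) of the 10 genes in each library by group (Sed, sedentary; U, untrained; T, trained), with dots for libraries, lines for the group mean and SD, and red crosses for the library that is deposited in both 0 h groups and left out of the mean. Arntl lies lowest and Dbp highest at T 72 h, Usp2 is low in Sed and U 72 h, and Bhlhe40 is lowest in the groups at 6 h.

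In trained muscle 72 h after exercise, Arntl was lower while Usp2 and Hlf were higher than in sedentary muscle. Arntl read 6.62, 9.20 and 9.02 TPM in the sedentary libraries and 3.13, 1.86 and 1.89 TPM in the trained 72 h libraries. Each trained 72 h library was thus below every sedentary one, and the mean was 2.29 ± 0.726 against 8.28 ± 1.44 TPM (SD, n = 3 each), a log2 fold change of -1.67 ± 0.208 (SE, adjusted p = 0.00928). The order of the group means put Arntl highest in sedentary and untrained 72 h muscle, whose libraries overlapped, and lowest in trained 72 h muscle, which overlapped with no neighbour.

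Usp2 encodes a deubiquitinase that acts on clock proteins and is itself under clock control. It was at 24.9, 20.5 and 28.5 TPM in sedentary muscle and at 45.9, 55.3 and 62.9 TPM in trained muscle at 72 h. No library overlapped, and the log2 fold change was 1.14 ± 0.168 (adjusted p = 0.0116). Hlf, the PAR bZIP factor with the lowest level, read 1.90, 1.43 and 1.67 TPM in sedentary and 2.37, 3.38 and 2.97 TPM in trained 72 h libraries. These did not overlap either, with a log2 fold change of 0.65 ± 0.115 (adjusted p = 0.0311).

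Dbp, the PAR bZIP factor that is most closely tied to the clock, was at 34.1, 17.3 and 20.9 TPM in sedentary muscle and at 34.7, 46.0 and 49.0 TPM in trained muscle at 72 h. The highest sedentary library reached almost the lowest trained one, and the log2 fold change of 0.87 (95% confidence interval 0.19 to 1.55) missed the threshold (adjusted p = 0.257). Tef, at 69.5 ± 13.1 TPM in sedentary and 96.0 ± 15.7 TPM in trained 72 h muscle, differed by 0.47 (adjusted p = 0.205). Nfil3, the repressor of D-boxes, averaged 5.91 ± 1.33 and 3.12 ± 0.552 TPM, with no overlap of libraries and a log2 fold change of -0.81 (interval -1.43 to -0.20, adjusted p = 0.24). Clock averaged 2.96 ± 0.395 and 2.08 ± 0.0685 TPM, a log2 fold change of -0.42 (adjusted p = 0.249).

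Npas2 was not tested with the others because of its low level. It read 0.279, 0.367 and 0.387 TPM in sedentary libraries, and 0.0821, 0.0183 and 0.0201 TPM in trained libraries at 72 h. With no filter on low values (36510 genes), its log2 fold change at 72 h was -0.64 (adjusted p = 0.0195). On that scale values this far below the added 0.5 TPM move little, and what a single read contributes to them is unknown.

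Bhlhe40 and Bhlhe41, repressors that bind E-boxes and so oppose the activators, averaged 27.2 and 11.3 TPM in trained 72 h muscle against 24.8 and 9.98 TPM in sedentary muscle, with log2 fold changes of 0.15 (interval -0.26 to 0.57) and 0.16 (interval -0.20 to 0.52). In all, 3 of the 9 members tested were called in trained muscle at 72 h, 2 higher and 1 lower, beside 0.245% of all genes tested. The libraries of 8 of the 10 members did not overlap. Among the 9 tested this held for 7, beside 19.4% of all genes tested. The median log2 fold change was 0.16 over the members and -0.04 over all genes. At 0 h and at 6 h, the libraries of 7 of the 10 members did not overlap between trained and sedentary muscle. In untrained muscle this held for 5 at 0 h and 4 at 6 h. The share of all genes was not counted for the 0 h and 6 h groups.

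**Figure D2:**
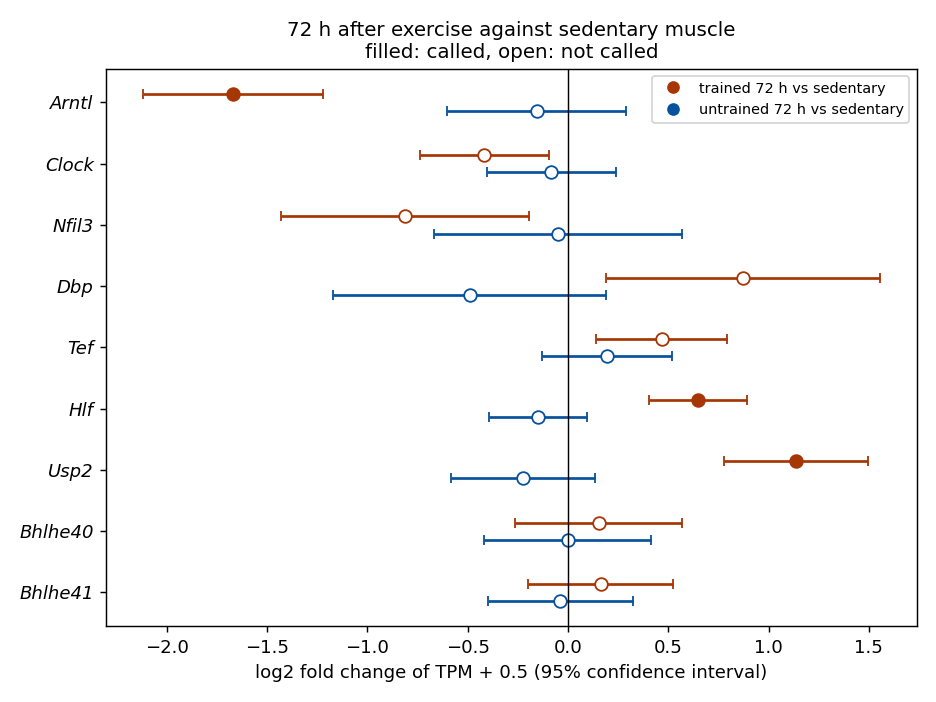
Log2 fold change of TPM + 0.5 against sedentary muscle (horizontal axis, with 95% confidence intervals from limma) for the 9 members tested, in trained (brown) and untrained (blue) muscle at 72 h, with filled points for genes called. Arntl (-1.67), Hlf (0.65) and Usp2 (1.14) are called in trained muscle and no gene in untrained muscle, and both series share the sedentary libraries.

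These calls rested in part on single libraries. Without trained 72 h replicate 2, Arntl stood at -1.56 (adjusted p = 0.0572), Usp2 at 1.12 (0.0829) and Hlf at 0.55 (0.147), so that no member was called. Without trained 72 h replicate 3, Usp2 stood at 1.03 (adjusted p = 0.0551) and Hlf at 0.63 (0.0863), and Hlf was also lost without sedentary replicate 2 (0.57, adjusted p = 0.0782) or sedentary replicate 3 (0.65, adjusted p = 0.0827). The Hlf call also ended with a pseudocount of 1 (0.55, short of the fold threshold), with no filter (adjusted p = 0.0619), with a replicate block (adjusted p = 0.0542) and with the shared library kept in both 0 h groups (adjusted p = 0.18). Fitted on the 6 libraries of these groups alone, Arntl, Usp2 and Hlf were not called by limma (adjusted p = 0.114, 0.137 and 0.218).

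Untrained muscle at 72 h was not told apart from sedentary muscle by any of the 10 genes. Arntl read 6.41, 7.07 and 8.59 TPM, Dbp 21.4, 18.3 and 11.1 TPM and Usp2 21.5, 21.6 and 19.4 TPM. The libraries of every member overlapped with those of sedentary muscle, while 12.3% of all genes tested did not overlap. Of the 9 members limma called 0, with 0 at an unadjusted p below 0.05, beside 717 of the 11822 genes tested. The log2 fold changes ran from -0.49 (Dbp, interval -1.17 to 0.19) to 0.19 (Tef, interval -0.13 to 0.52). Of all genes 0.00846% was called, which is a single gene, the macrophage marker Cd68. This comparison and that of trained muscle share the sedentary libraries.

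The difference between trained and untrained muscle at 72 h, tested directly, was called for the same 3 members. Usp2 was higher in trained muscle by 1.36 ± 0.168 on the log2 scale (SE, adjusted p = 0.00388), Hlf was higher by 0.80 ± 0.115 (adjusted p = 0.00973), and Arntl was lower, with a log2 fold change of -1.51 ± 0.208 (adjusted p = 0.00769). Hlf read 1.59, 1.49 and 1.27 TPM in the untrained libraries, all below its 3 trained ones. Of all genes 0.364% were called.

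Dbp differed by 1.36 with a wider error (SE 0.317, interval 0.68 to 2.04, adjusted p = 0.0566, and 0.0351 with a minimum mean of 5 TPM), although its 3 trained libraries were all above the highest untrained one. Nfil3 (-0.76, adjusted p = 0.202), Clock (-0.33, adjusted p = 0.287) and Tef (0.27, adjusted p = 0.407) were not called. Npas2 averaged 0.359 ± 0.125 TPM in the untrained and 0.0402 ± 0.0363 TPM in the trained group. With no filter its log2 fold change was -0.66 (adjusted p = 0.0153). Bhlhe40 and Bhlhe41 differed by 0.16 and 0.20 (adjusted p = 0.75 and 0.61). With the shared library kept in both 0 h groups, Hlf was not called (adjusted p = 0.0908). Without trained 72 h replicate 2, Arntl (-1.41, adjusted p = 0.0645) and Hlf (0.70, adjusted p = 0.0648) were no longer called, and Hlf was also lost without untrained 72 h replicate 2 (0.81, adjusted p = 0.0513). Usp2 was called whichever library was left out, and it alone was called by limma when just these groups were fitted (adjusted p = 0.0634 for Arntl and 0.0693 for Hlf).

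Other measures moved with this comparison. The mitochondrial genome took 46.7 to 48.0% of the TPM in trained and 42.3 to 44.3% in untrained muscle at 72 h. After the values were rescaled without its genes and the 10 highest genes, the log2 fold changes were -1.52 for Arntl, 1.49 for Usp2 and 1.00 for Hlf, and all 3 were still called. The summed level of 7 macrophage markers was 34.3 to 39.2 TPM in trained, 47.7 to 51.9 TPM in untrained and 32.8 to 36.3 TPM in sedentary muscle. Cd68, the single marker of that list called between trained and untrained muscle, fell by 1.24 on the log2 scale. Against sedentary muscle, the sum of 5 slow fibre markers was lower in trained muscle at 72 h (186 to 294 against 338 to 700 TPM). Those of 4 fibro-adipogenic markers (256 to 281 against 210 to 237 TPM) and 4 adipocyte markers (17.9 to 26.0 against 7.64 to 12.7 TPM) were higher, with no marker called. In untrained muscle at 72 h the slow fibre sum was 216 to 323 TPM, also below the sedentary range. The fibro-adipogenic and adipocyte sums there were 200 to 269 and 12.6 to 46.0 TPM. All of these ranges overlapped between trained and untrained muscle at 72 h. The part of these measures in the result was not tested.

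Immediately after exercise, Usp2 rose in both training states. It read 65.8 and 58.7 TPM in untrained mice and 73.9 and 52.6 TPM in trained mice at 0 h, above all sedentary libraries, with log2 fold changes of 1.33 ± 0.187 (adjusted p = 0.000615) and 1.34 ± 0.187 (adjusted p = 0.000538). Both calls were kept whichever library was left out, and Usp2 in the shared 0 h library was 48.8 TPM, again above the sedentary range.

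Nfil3 was raised in the same groups. It read 15.2 and 13.1 TPM in untrained and 22.1 and 9.31 TPM in trained libraries, against 4.43 to 7.01 TPM in sedentary muscle. The rise in trained muscle was called (1.24 ± 0.321, adjusted p = 0.0379) and that in untrained muscle narrowly was not (1.21 ± 0.321, adjusted p = 0.0507). The trained call was lost without sedentary replicate 1 (1.06, adjusted p = 0.137), sedentary replicate 2 (1.36, adjusted p = 0.0593) or trained 0 h replicate 2 (0.64, adjusted p = 0.346), where a lone 0 h library is assumed to vary like the other groups. It was also lost under median-of-ratios scaling (adjusted p = 0.0662) and after rescaling without the mitochondrial genome and the 10 highest genes (adjusted p = 0.086).

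Arntl was below the sedentary libraries at 0 h, at 5.19 and 4.84 TPM in untrained mice and 5.10 and 5.23 TPM in trained mice, but its log2 fold changes of -0.66 (adjusted p = 0.153) and -0.62 (adjusted p = 0.143) were not called. In the shared library the same gene was at 11 TPM, the highest Arntl value of the series, together with the highest Nfil3 (26.2 TPM) and a Dbp level (10.6 TPM) below all other 0 h libraries. Arntl in that library therefore lay outside the range of both groups under which it was deposited. Dbp (0.14 and 0.28), Bhlhe40 (0.40 and 0.46) and Bhlhe41 (0.25 and -0.08) were not called in untrained or trained muscle, and Dbp turned to -0.27 and -0.18 with the shared library kept. Tef and Hlf differed by 0.45 each in trained muscle (adjusted p = 0.142 and 0.0584). Npas2 read 0.213 and 0.149 TPM in untrained and 0.113 and 0.1 TPM in trained libraries, below all sedentary ones, and 0.392 TPM in the shared library. Members called numbered 1 of 9 in untrained and 2 of 9 in trained muscle at 0 h, beside 2.89% and 3.21% of all genes.

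At 6 h Bhlhe40 was the member with the lowest log2 fold change in untrained muscle. Untrained libraries read 13.2, 12.8 and 13.9 TPM against 28.3, 18.7 and 27.4 TPM in sedentary muscle, without overlap, and the gene fell by 0.86 ± 0.194 on the log2 scale (adjusted p = 0.0128). Without sedentary replicate 1 this call was lost (-0.75, adjusted p = 0.0597). Trained libraries read 12.5, 15.9 and 18.9 TPM, the last of them just above the lowest sedentary value, and the log2 fold change of -0.64 missed the threshold (adjusted p = 0.051). It was called without sedentary replicate 2 (-0.82, adjusted p = 0.0216) or trained 6 h replicate 3 (-0.77, adjusted p = 0.0419).

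Usp2 was still above sedentary muscle at 6 h, at 40.8, 51.7 and 49.2 TPM in trained libraries (log2 fold change 0.93 ± 0.168, adjusted p = 0.00335) and at 42.8, 29.9 and 36.6 TPM in untrained ones (0.55, adjusted p = 0.0551). The untrained difference was called without sedentary replicate 3 (0.66, adjusted p = 0.0427) or untrained 6 h replicate 2 (0.69, adjusted p = 0.0343). Nfil3 rose in untrained muscle (9.14, 15.5 and 13.2 TPM, 1.02 ± 0.287, adjusted p = 0.0384), and in trained muscle it read 9.21, 7.66 and 10.3 TPM (0.59, adjusted p = 0.22). The untrained call did not withstand the loss of any sedentary library (adjusted p = 0.144, 0.0558 and 0.0684 without replicates 1, 2 and 3, at log2 fold changes of 0.85, 1.15 and 1.08), of untrained 6 h replicate 2 (0.86, adjusted p = 0.139) or of replicate 3 (0.98, adjusted p = 0.11).

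Clock averaged 2.15 ± 0.701 TPM in untrained mice and 1.97 ± 0.0229 TPM in trained mice at 6 h. Its log2 fold changes were -0.41 (adjusted p = 0.112) and -0.48 (adjusted p = 0.0567), and the untrained one was called (-0.59, adjusted p = 0.0196) without untrained 6 h replicate 3. Dbp averaged 15.4 ± 5.73 TPM in untrained mice and 13.8 ± 1.77 TPM in trained mice, with log2 fold changes of -0.64 (adjusted p = 0.26) and -0.73 (adjusted p = 0.168). Npas2 was at 0.0725 ± 0.0163 and 0.0664 ± 0.0278 TPM, below all sedentary libraries. With no filter its log2 fold changes were -0.56 (adjusted p = 0.00348) and -0.57 (adjusted p = 0.00355), just short of the fold threshold. At 6 h, 2 of 9 members were called in untrained and 1 of 9 in trained muscle, where 4.22% and 3.81% of all genes were called.

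**Figure D3:**
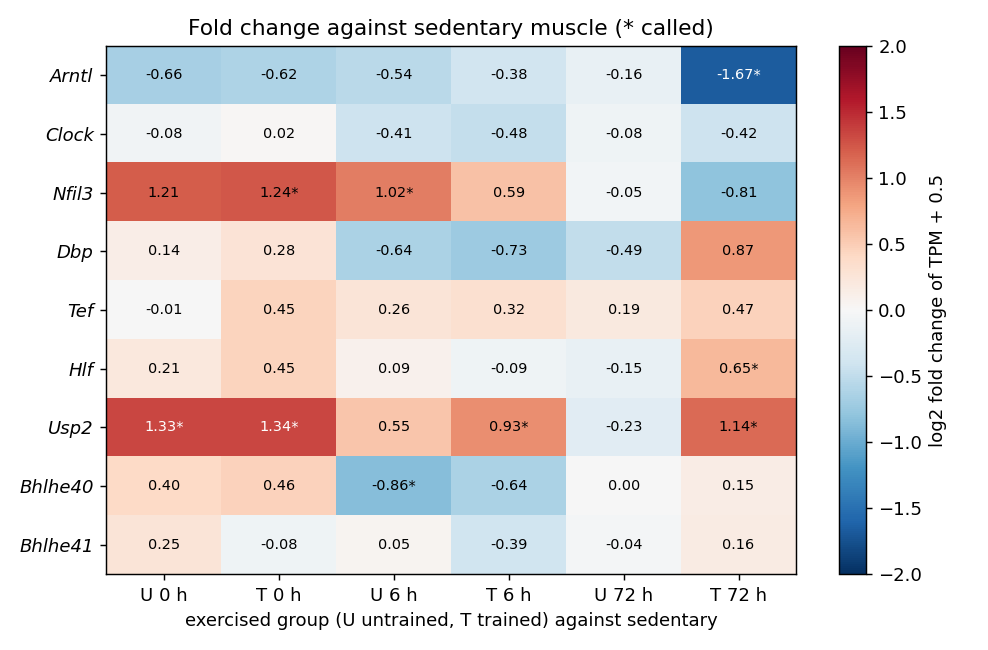
Log2 fold change of TPM + 0.5 (colour, red higher and blue lower) of 9 members in the 6 exercised groups (U, untrained; T, trained) against sedentary muscle, with an asterisk on values called. Usp2 is called in every column but U 6 h and U 72 h, Nfil3 is highest at 0 h, and T 72 h holds the lowest Arntl value (-1.67).

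Between 0 h and 6 h Bhlhe40 fell in both training states. It fell by 1.25 ± 0.217 on the log2 scale in untrained muscle (adjusted p = 0.0027), from 26.4 and 39.4 TPM at 0 h, and fell by 1.10 ± 0.217 in trained muscle (adjusted p = 0.00455), from 28.5 and 39.8 TPM. These calls were lost without replicate 3 of the respective 0 h group (-0.97, adjusted p = 0.0609, and -0.86, adjusted p = 0.0698). Usp2 fell by 0.78 ± 0.187 in untrained muscle (adjusted p = 0.0225), a call that was lost without untrained 0 h replicate 2 (-0.69, adjusted p = 0.168) or replicate 3 (-0.86, adjusted p = 0.085) and without untrained 6 h replicate 2 (-0.64, adjusted p = 0.0642). In trained muscle it changed by -0.40 (adjusted p = 0.152). Hlf in trained muscle had an adjusted p of 0.0126, with a log2 fold change of -0.54 short of the threshold. Nfil3 changed by -0.65 in trained muscle (adjusted p = 0.178), and by -1.25 (adjusted p = 0.0335) without trained 0 h replicate 3. Dbp changed by -1.01 in trained muscle (adjusted p = 0.0675). Members called from 0 h to 6 h were 2 of 9 in untrained and 1 of 9 in trained muscle, beside 4.13% and 5.74% of all genes.

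From 6 h to 72 h, 5 of the 9 members tested were called in trained muscle, where 3.38% of all genes were. Arntl fell by 1.29 ± 0.208 on the log2 scale (adjusted p = 0.00147), from 6.30, 6.06 and 6.25 TPM, and Nfil3 fell by 1.4 ± 0.287 (adjusted p = 0.00717), to 3.73, 2.65 and 2.99 TPM. Dbp rose by 1.60 ± 0.317 (adjusted p = 0.00598), from 13, 15.9 and 12.7 TPM, and Hlf by 0.74 ± 0.115 (adjusted p = 0.00111), from 1.48, 1.59 and 1.51 TPM. The libraries of these 4 genes did not overlap, as was the case for 31.2% of all genes tested, and the 4 calls were kept whichever library was left out. Bhlhe40 rose by 0.79 ± 0.194 (adjusted p = 0.02), to 25.6, 27.6 and 28.4 TPM. Its call was lost without trained 6 h replicate 1 (0.64, adjusted p = 0.0907), trained 72 h replicate 2 (0.78, adjusted p = 0.0647) or trained 72 h replicate 3 (0.76, adjusted p = 0.0668). Bhlhe41 missed the threshold (0.56, adjusted p = 0.0531), and Usp2 differed by 0.21 (adjusted p = 0.522).

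In untrained muscle 3 of 9 members were called over the same interval, beside 3.9% of all genes. Usp2 fell by 0.78 ± 0.168 (adjusted p = 0.0102), to 21.5, 21.6 and 19.4 TPM beside 20.5 to 28.5 TPM in sedentary muscle. This call was kept whichever library was left out. Nfil3 fell by 1.07 ± 0.287 (adjusted p = 0.0318), to 4.40, 5.22 and 7.59 TPM, and Bhlhe40 rose by 0.85 ± 0.194 (adjusted p = 0.0132), to 28.3, 21.2 and 24.2 TPM. The call of Bhlhe40 was lost without untrained 72 h replicate 1 (0.75, adjusted p = 0.0601). That of Nfil3 was lost without untrained 6 h replicates 2 (-0.91, adjusted p = 0.109) or 3 (-1.03, adjusted p = 0.09) and without untrained 72 h replicates 1 (-0.92, adjusted p = 0.124) or 2 (-1.03, adjusted p = 0.0997). Arntl changed by 0.38 (interval -0.07 to 0.83) and Dbp by 0.15 (interval -0.53 to 0.83) in untrained muscle.

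No member tested was called between trained and untrained muscle at 0 h or 6 h. Libraries did not overlap for Tef, Hlf and Npas2 at 0 h, with n = 2 in each group, and for Hlf and Bhlhe41 at 6 h. The share of all genes without overlap was not counted for these comparisons. At 0 h limma called 0 of 9 members and 0% of all genes, with 1 member (Tef, 0.46) and 527 genes at an unadjusted p below 0.05. At 6 h it called 0 of 9 members beside 1.93% of all genes. An unadjusted p below 0.05 was reached by 2 members, beside 2260 of the 11822 genes tested. These members were Usp2 (0.38, adjusted p = 0.236) and Bhlhe41 (-0.45, adjusted p = 0.153). Arntl differed by 0.04 (interval -0.51 to 0.59) at 0 h and by 0.16 (interval -0.29 to 0.61) at 6 h, and Dbp by 0.14 (interval -0.70 to 0.97) and -0.09 (interval -0.77 to 0.59). These intervals leave room for differences as large as the fold threshold.

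Tef, Clock and Bhlhe41 were called in none of the 13 comparisons. The levels of Tef ran from 68.3 TPM (untrained 0 h) to 96.0 TPM (trained 72 h) over group means, and each neighbour in that order overlapped. Bhlhe41 ran from 7.49 TPM (trained 6 h) to 11.9 TPM (untrained 0 h), likewise with overlap of all neighbours. Clock ran from 1.97 TPM (trained 6 h) to 2.99 TPM (trained 0 h), and its neighbours overlapped except for trained 72 h and trained 6 h at the low end.

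Arntl and Dbp were also set against each other in single libraries. The ratio of Dbp to Arntl ranged from 11.1 to 26.0 in trained muscle at 72 h, from 1.88 to 5.15 in sedentary muscle and from 1.29 to 3.34 in untrained muscle at 72 h. It was 3.82 to 6.78 in untrained and 5.30 to 5.62 in trained muscle at 0 h, and 1.32 to 5.61 and 2.03 to 2.62 at 6 h, so trained 72 h muscle alone lay above all other libraries. Within groups, the library with the lowest Arntl had the highest Dbp in 5 of 7 groups, and the orders were fully opposite in 4 of 7, among them untrained 0 h with 2 libraries. Trained muscle at 0 h and 72 h did not show either pattern. This describes few libraries and was not tested. An example of opposite orders is untrained 6 h, with Arntl at 3.71, 6.25 and 7.11 TPM and Dbp at 20.8, 16.1 and 9.39 TPM in replicates 1, 2 and 3. In trained muscle at 6 h Arntl hardly differed between libraries (6.06 to 6.30 TPM).

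**Figure D4:**
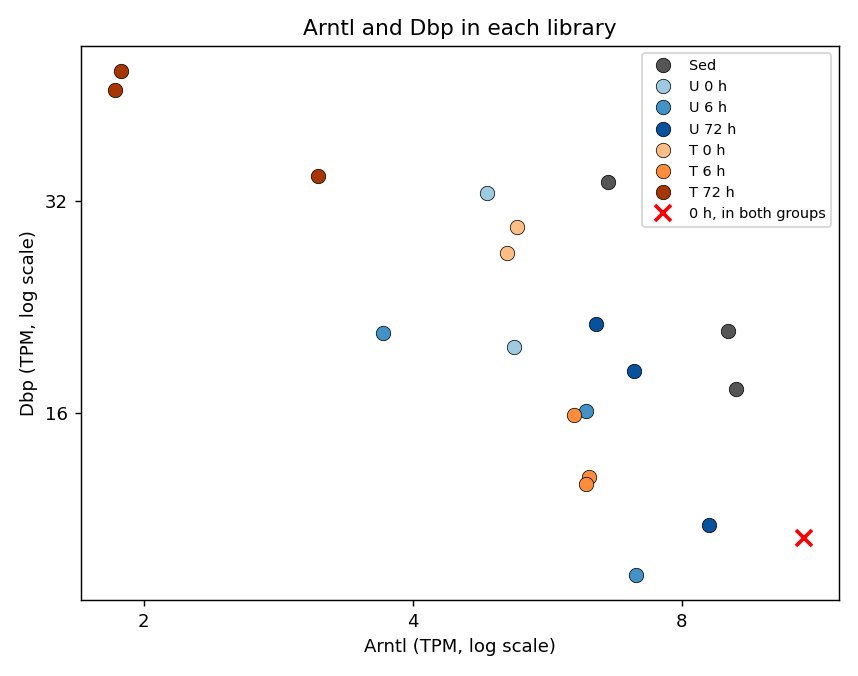
Dbp against Arntl (TPM, both axes logarithmic) in the 20 distinct libraries, coloured by group (Sed, sedentary; U, untrained; T, trained), with a red cross for the library deposited in both 0 h groups. The 3 trained 72 h libraries lie at the upper left, with Arntl from 1.86 to 3.13 TPM and Dbp from 34.7 to 49.0 TPM, and the shared library at the lower right.

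Over the 20 libraries, Pearson's r of log2(TPM + 0.5) with Arntl was -0.85 for Hlf, -0.77 for Dbp, 0.74 for Npas2, 0.55 for Clock, -0.55 for Usp2, 0.51 for Nfil3, -0.51 for Tef, -0.32 for Bhlhe41 and -0.14 for Bhlhe40. These values describe libraries that share groups and a scaling to a fixed total. Among the 11813 other genes tested, Plekhf2 (0.85), Slc9a2 (0.82), Ahdc1 (0.81), Ppp1r27 (0.81) and Tbce (0.80) were most like Arntl. A230020J21Rik (-0.82), Per3 (-0.81), Mylk4 (-0.80), Cep85l (-0.73) and Per2 (-0.73) were most opposite to it, the Per genes being the inhibitors of its product. For Dbp the most alike were Per3 (0.92), Sphk2 (0.87), Slc30a1 (0.82), Stard3 (0.79) and A230020J21Rik (0.79), and the most opposite Spsb3 (-0.84), Cdc42ep2 (-0.82), Gngt2 (-0.82), Tnfrsf23 (-0.80) and Miga2 (-0.78). Per3 thus stood first for Dbp, and Per3 and A230020J21Rik were in both lists.

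In trained muscle at 72 h, 3 genes of the inhibitory limb of the loop were higher as well. The list held 11 genes of the negative limb and the nuclear receptor loop. Per1, Per2 and Ciart were called higher in trained muscle at 72 h against sedentary muscle, and none lower, beside 0.245% of all genes tested. Per1 averaged 8.14 ± 1.79 against 2.01 ± 0.773 TPM (log2 fold change 1.81, adjusted p = 0.00928), Per2 2.21 ± 0.426 against 0.459 ± 0.163 TPM (1.5, adjusted p = 0.00928) and Ciart 6.38 ± 2.95 against 1.97 ± 0.729 TPM (1.43, adjusted p = 0.0479). Period proteins and CIART are repressors of the CLOCK and BMAL1 pair. The same 3 genes were higher than in untrained muscle at 72 h, by 1.76, 1.12 and 2.08 (adjusted p = 0.00997, 0.0161 and 0.00769). In that comparison 0.364% of all genes were called. The median of the list was 0.36 against sedentary and 0.46 against untrained muscle, where that of all genes was -0.04 and -0.08. Without trained 72 h replicate 2 no gene of the whole table was called against sedentary muscle, and 4 genes were called against untrained muscle.

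Nr1d1, which encodes the repressor REV-ERBα that is known to act on Arntl through ROREs, was lower than in sedentary muscle at 6 h. It read 54.8, 53.8 and 51.2 TPM in sedentary, 24.1, 31.2 and 27.4 TPM in untrained 6 h and 15.2, 13.6 and 9.97 TPM in trained 6 h libraries. Against sedentary muscle it fell by 0.94 in untrained and by 2.02 in trained muscle at 6 h. It was the single gene of the list called between trained and untrained muscle at 6 h (-1.08, adjusted p = 0.00148), beside 1.93% of all genes. At 72 h it was at 37.2, 32.5 and 32.0 TPM in trained muscle (-0.65 against sedentary muscle, adjusted p = 0.0783), and at 49.8, 52.9 and 46.5 TPM in untrained muscle. At 6 h Per1, Per2 and Cry2 were called higher against sedentary muscle in both training states, and at 0 h Per1, Per2 and Ciart. Of all genes, 4.22% in untrained and 3.81% in trained muscle were called at 6 h, and 2.89% and 3.21% at 0 h. Nr1d1 was called lower in trained muscle at 0 h as well (-0.84, adjusted p = 0.00968).

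**Figure D5:**
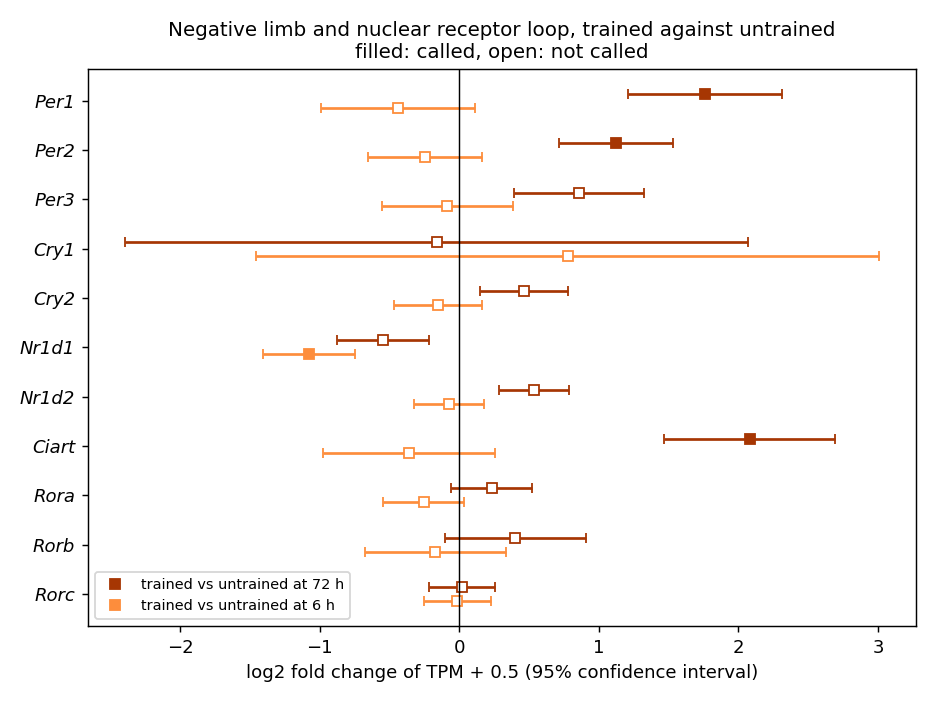
Log2 fold change of TPM + 0.5 between trained and untrained muscle (horizontal axis, with 95% confidence intervals from limma) for 11 genes of the negative limb and nuclear receptor loop at 72 h (brown) and 6 h (orange), with filled squares for genes called. Per1 (1.76), Per2 (1.12) and Ciart (2.08) are called higher at 72 h, and Nr1d1 (-1.08) lower at 6 h.

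Further gene groups were read in the same way. Of 8 kinases and ubiquitin ligases that modify clock proteins, 7 were tested and limma called 0 in trained muscle at 72 h against sedentary or untrained muscle. In each, 0 were at an unadjusted p below 0.05, beside 1512 and 1929 of the 11822 genes tested. Of 5 genes known as PAR bZIP targets in liver and brain, 0 were called at 72 h in trained against sedentary muscle. An unadjusted p below 0.05 was reached by 2 of them, of which Por (0.46, adjusted p = 0.0324) missed only the fold threshold. At 6 h Pdxk (0.76), Por (0.62) and Ppara (1.26) of that list were called higher in trained muscle, where 3.81% of all genes were called. Por was also called higher in untrained muscle at 6 h (0.78), and Pdxk at 0 h in untrained (1.25) and trained muscle (1.42). Pdxk is a pyridoxal kinase, Por the reductase that serves cytochromes P450 and Ppara a nuclear receptor of lipid metabolism. Of 7 muscle genes known to depend on the muscle clock, 0 were called at 72 h in trained against sedentary muscle (0 at an unadjusted p below 0.05), and at 6 h Hk2, Tbc1d1 and Myod1 rose in untrained muscle by 1.36, 1.73 and 1.49, beside 4.22% of all genes. Hk2 rose in trained muscle at 6 h too, by 1.44. Among 3 further cycling genes, Tspan4 rose in trained muscle at 72 h (0.93, adjusted p = 0.0296), Tsc22d3 did not pass (0.31, adjusted p = 0.503) and Wee1 was below the filter.

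Reads of overlapping genes cannot be separated by strand here, since the library kit does not mark it. In the GRCm39 annotation Dbp (chr7:45354512-45359627) overlaps Sphk2 on the opposite strand over 737 bases, of which 539 are exonic in Dbp. Sphk2 was among the genes most like Dbp, and its log2 fold change at 72 h in trained against sedentary muscle was 0.27 (adjusted p = 0.268), beside 0.87 for Dbp. Hlf (chr11:90227221-90281761) has 5077 exonic bases within the span of Mmd, which changed by 0.13 in that comparison (adjusted p = 0.821). Clock (chr5:76342860-76452846) has 4047 within that of Tmem165, which changed by 0.01 (adjusted p = 0.992). Exons of Mmd and Tmem165 were not compared with them. Usp2 (chr9:43978264-44006924) lies within Gm49380, which was below the filter and averaged 0.0462 TPM in sedentary, 0.458 and 0.446 TPM in untrained and trained 0 h and 0.038 TPM in trained 72 h muscle. Arntl (chr7:112806152-112914735, annotated as Bmal1) overlaps 3 noncoding genes on the opposite strand and no protein-coding gene.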

How the data were processed

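Per the labels and the methods of the study, RNA of quadriceps was made into paired-end libraries with a TruSeq RNA kit that keeps no strand, and the authors aligned reads to GRCm39 with STAR and quantified them with Salmon (versions 2.7.9 and 1.5.0 in the processing notes of the submitters). The deposited values are TPM per gene symbol, scaled to a fixed total, so that a large change of abundant genes shifts all others. Column totals lay between 997304 and 997921. No read counts were used, hence depth and counting error are unknown. The labels name separate samples of a group and nothing further, so p-values measure the spread between these samples.

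Values were taken to log2(TPM + 0.5), and the 11822 genes averaging 1 TPM or more across 19 libraries were fitted with limma 3.58.1 (R 4.3.3), with 1 mean per group, a trended eBayes prior and 12 residual degrees of freedom, and 13 comparisons were tested with Benjamini-Hochberg adjustment over all genes. A call needed an adjusted p below 0.05 and a change of at least 1.5 times. The procedure was also run on simulated data, drawn as independent normal values with the mean and spread of each gene. Such data follow the model, so they cannot show how far calls rest on single libraries. The members and gene lists were chosen with earlier results of these data known. All 10 members are named, with genes called in the lists and the 5 genes most alike and most opposite to Arntl and to Dbp by Pearson's r. The alternatives were pseudocounts of 0.1 and 1, no filter, a minimum mean of 5 TPM, 2 other scalings, fits on the groups compared, a replicate block, the shared library kept, and each library left out.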

Additional observations from a re-analysis of the deposited data

Results flagged for a closer look

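Trained and untrained muscle at 72 h differed in 3 members, by the direct limma test of trained against untrained muscle. Whether this reflects training alone or a different response to the bout cannot be told from these groups. Arntl differed by -1.51, Hlf by 0.80 and Usp2 by 1.36 on the log2 scale. For each gene all 3 trained libraries lay on the same side of all 3 untrained libraries. This is no separate evidence, since the 3 genes were picked by that test, and the share of all genes was not counted. No group of these data had 4 or more libraries, so single libraries were not screened against their group.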

How the results depend on the processing

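No called value of a member changed sign under any alternative, whereas 30 values that were not called did under at least 1, none of them above 0.28 in size on the log2 scale. Of 23 called values 7 were kept under every alternative, which were Usp2 in untrained 0 h and trained 6 h against sedentary and in trained against untrained muscle at 72 h, and Arntl, Nfil3, Dbp and Hlf from 6 h to 72 h in trained muscle. Of 94 values not called, 9 were called under at least 1 alternative, among them Dbp between trained and untrained muscle at 72 h (1.36, adjusted p = 0.0351) with a minimum mean of 5 TPM, which leaves Hlf untested.

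Members called against sedentary muscle at 0 h in untrained mice were 2 with a pseudocount of 0.1, a minimum mean of 5 TPM or the shared library kept, in place of 1. In trained mice at 0 h they were 1, in place of 2, with no filter, median-of-ratios scaling, rescaling without mitochondrial-genome genes and the highest 10, or the replicate block, 0 when only the groups compared were fitted, and 1 to 2 with each library left out. In untrained mice at 6 h they were 1 with no filter or the shared library kept, 0 with only the groups compared and 0 to 2 with each library left out, in place of 2. In trained mice at 6 h they were 2, in place of 1, with a pseudocount of 0.1, a minimum mean of 5 TPM, the rescaling, the replicate block or the shared library kept, and 1 to 2 with each library left out. In trained mice at 72 h they were 2 with a pseudocount of 1, a minimum mean of 5 TPM, the replicate block or the shared library kept, 0 with only the groups compared and 0 to 3 with each library left out, in place of 3. Between trained and untrained muscle at 72 h they were 4 with no filter, where Npas2 was added, 2 with the shared library kept, where Hlf was lost, 1 with only the groups compared and 1 to 3 with each library left out, in place of 3. From 0 h to 6 h in untrained muscle they were 0 with only the groups compared, 1 with the replicate block and 0 to 2 with each library left out, in place of 2, and in trained muscle 2 with a pseudocount of 0.1, in place of 1. From 6 h to 72 h in untrained muscle they were 1 with only the groups compared and 1 to 3 with each library left out, in place of 3. They were 2 with no filter or the shared library kept, where Nfil3 was lost. In trained muscle over that interval they were 4 to 6 across the settings and 4 to 5 with each library left out, in place of 5. There Bhlhe40 was lost with no filter or only the groups compared, and Bhlhe41 was gained by the rescaling. Fits on the groups compared have fewer libraries, a pseudocount changes low values most, and a filter changes the set of genes tested. With no filter (36510 genes in place of 11822), Nfil3 in untrained 6 h against sedentary muscle stayed at 1.02. Its adjusted p from limma went from 0.0384 to 0.0892. The cause of the changes in calls was not tested.

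Replicate numbers did not pair the samples over all genes tested. A shared order of a few genes alone, such as the rhythmic ones, would not show there and was not tested. Deviations of libraries with the same number correlated between -0.0875 and 0.0896 (52 pairs), and 6 of 19 libraries correlated best with their own number. Genes called in all changed with the setting, from 29 to between 9 and 49 in trained 72 h against sedentary muscle with every library kept, and the share of them that was higher went from 48.3% to 81.6% after the rescaling. Between trained and untrained muscle at 72 h that share went from 30.2% of 43 to 55.6% of 27 genes, while no called member changed direction. Another scaling moved the median of all genes by 0.117 and 0.136 for untrained and trained 0 h against sedentary and by 0.148 for trained muscle from 0 h to 6 h. Changes of Clock, Hlf and Npas2 are limited by low levels.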
